A study of Mus musculus with 10 samples.

Results

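The mitochondrial ribosomal proteins are the proteins of the ribosome inside mitochondria, and their genes were taken by name: every protein-coding mouse gene whose symbol starts with Mrpl or Mrps followed by a digit. There were 78 such genes, 49 named Mrpl and 29 named Mrps, among 56748 genes in the count tables. RNA sequencing was performed on whole hearts, atria and ventricles together, of wild-type (WT) male C57BL/6 mice that entered the study at 8 weeks of age. The training group of 5 mice ran on a treadmill for 8 weeks, 120 min a day on 5 days a week at 15 m/min, and the 5 sedentary mice of the same age did not run. The running was forced, and each library came from the heart of 1 mouse. Between 29461697 and 39431030 uniquely mapped reads per heart were counted on genes, all of them on the strand that the library kit reads.

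Mitochondria carry their own DNA, which encodes a few subunits of the respiratory chain together with the ribosomal RNAs needed to translate them. The proteins of the mitochondrial ribosome, or mitoribosome, are encoded in the nucleus, made in the cytosol and imported. Many have a counterpart in the bacterial ribosome and others are found only in mitochondria, and heart muscle, which lives on oxidative metabolism, depends on this translation. Symbols do not always give the subunit. By their place in the structure, 51 of the 78 genes encode large subunit proteins and 26 small subunit proteins. Mrps30 (mL65) and Mrps18a (mL66) sit in the large subunit in spite of their names. Mrps36 (KGD4) is a component of the 2-oxoglutarate dehydrogenase complex and no ribosomal protein, and it was kept because the rule is the symbol.

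Short motifs were searched in the promoters of these genes, a feature that the choice of genes did not use, and 36 of 75 promoter windows held at least 1 of them. The windows ran from 250 bases before to 50 bases after the transcription start in RefSeq (GRCm38.p6), and 69 of the 78 genes had at least 1 window, 75 windows in all. On both strands, 3 motifs were searched: GCGCATGC or GCATGCGC, the letters bound by NRF1, CCGGAAG or CTTCCGG, a core of ETS factors such as GABPA, and AAGATGGCG or CGCCATCTT, bound by YY1. The orientations of the NRF1 letters can overlap, and the ETS and YY1 letters can share AAG. The ETS core stood in 34.7% of the mitoribosomal windows and in 8.86% of all 32851 windows. All windows were those of 27025 genes not chosen for expression in the heart, and expressed genes alone were not compared. The NRF1 letters stood in 10.7% and 2.71%, and the YY1 letters in 10.7% and 1.4%. At least 1 of the motifs was present in 48% of the mitoribosomal windows and 12.1% of all windows. It was present in 9 of 15 windows of the genes described here as lower after training and in 27 of 60 windows of the other mitoribosomal genes. Some of the other genes had several windows, and counted by gene it was 9 of 15 and 27 of 54. The difference was not tested. A match says only that the letters are there. The last 120 bases before the start are given for 4 genes that were lower after training (Mrpl32, Mrpl22, Mrpl3 and Mrps18a), each with the matched letters in capitals, and for Mrps6, the only gene called higher, whose whole window held none of the 3 motifs. These 5 were picked after their values were seen.
Mrpl32, chr13:14613038-14613157 (- strand): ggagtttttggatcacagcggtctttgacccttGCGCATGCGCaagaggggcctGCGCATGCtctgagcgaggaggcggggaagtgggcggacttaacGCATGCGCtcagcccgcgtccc
Mrpl22, chr11:58171544-58171663 (+ strand): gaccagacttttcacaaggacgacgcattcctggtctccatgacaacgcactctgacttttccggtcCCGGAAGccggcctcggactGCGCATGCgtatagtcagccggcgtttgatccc
Mrpl3, chr9:105053148-105053267 (+ strand): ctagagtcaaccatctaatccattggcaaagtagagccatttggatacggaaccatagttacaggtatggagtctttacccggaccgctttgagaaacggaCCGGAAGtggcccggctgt
Mrps18a, chr17:46110884-46111003 (+ strand): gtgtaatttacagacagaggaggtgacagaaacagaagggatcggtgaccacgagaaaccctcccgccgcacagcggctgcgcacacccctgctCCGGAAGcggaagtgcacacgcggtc
Mrps6, chr16:92058216-92058335 (+ strand): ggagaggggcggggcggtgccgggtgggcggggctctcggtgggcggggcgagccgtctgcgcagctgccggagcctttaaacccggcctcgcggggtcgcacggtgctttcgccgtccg
Mrpl32 held 3 separate stretches of NRF1 letters, and Mrpl22 held an ETS core followed by NRF1 letters.

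Most mitochondrial ribosomal protein genes had slightly lower counts in the training hearts. As lower, 17 genes of the set passed the test, namely 16 genes of ribosomal proteins and Mrps36. Of the 78 genes, 77 had the counts that a test needs, and 70 of these had a log2 fold change, training over sedentary, below 0. The median was −0.11, at which the level decreased by 7.44%, with quartiles of −0.17 and −0.068, while the median over all 15454 tested genes was 0.000. At an FDR below 0.1 in the edgeR quasi-likelihood test, 17 of the 77 were lower, which is 22.1%, against 4.26% of all tested genes. Mrps6 alone was higher, which is 1.3%, against 2.75% of all tested genes. In 17 genes every training heart was below every sedentary heart in CPM (counts scaled to the corrected library size), against 2.94% of all tested genes, and in 1 gene every training heart was above, against 2.12%. Of the 17 called lower, 12 were without overlap between the groups. The other genes without overlap, Mrpl16, Mrpl40, Mrpl44, Mrps7 and Mrps12, were not called. The steps were small: among the genes called lower the median was −0.21 and the smallest was −0.15, in Mrpl4.

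The count of calls depended on single hearts, on a score of atrial genes and on the scaling. It was 29 without training heart 1 and 7 without sedentary heart 3. Without training hearts 3, 4 and 5, each left out in turn, it was 10, 8 and 9, and without sedentary hearts 2 and 4 it was 11 and 10. Lower calls over all genes fell in these fits too, from 659 to 352, 323 and 455 without training hearts 3, 4 and 5. They were 389, 298 and 398 without sedentary hearts 2, 3 and 4, and 621 without training heart 1. The median of the mitoribosomal genes stayed between −0.14 and −0.093 in the fits with 1 heart left out. In all 10 of these fits 6 genes were called lower: Mrpl41, Mrps18b, Mrps2, Mrps18a, Mrpl51 and Mrpl3. When this score, taken per heart from 14 atrial markers, entered the edgeR fit as a covariate, no mitoribosomal gene was called in either direction, 20 were lower and 2 higher at an unadjusted p below 0.05, 65 were below 0, and the median was −0.089. Over all genes that fit called 98 lower and 32 higher. With library totals alone, without correction for composition, 8 mitoribosomal genes were lower, 59 were below 0 and the median log2 fold change of members was −0.059 against 0.053 over all genes. That scaling called 341 genes lower and 1028 higher in all, against 659 and 425 with the correction.

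**Figure D1:**
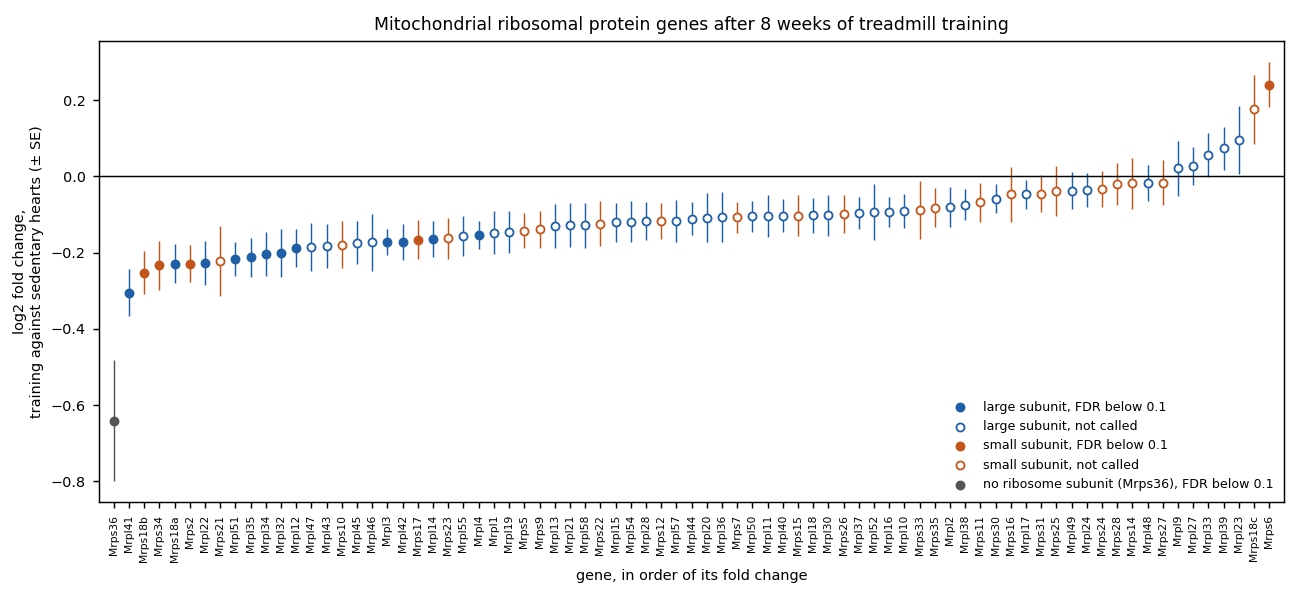
Log2 fold change, training over sedentary (y axis, ± standard error from edgeR, n = 5 hearts per group) for the 77 tested genes in order of their fold change (x axis), with large subunit genes in blue, small subunit genes in orange and Mrps36 in grey, and filled points for an FDR below 0.1. The series runs from −0.64 in Mrps36 to 0.24 in Mrps6, and 70 points lie below 0.

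The medians of the subunits were close, and the difference between them was not tested. The 50 tested large subunit genes had a median log2 fold change of −0.12, with 45 below 0, 12 called lower and none higher (edgeR, also none higher at an unadjusted p below 0.05 or by DESeq2). The 26 small subunit genes had a median of −0.10, with 24 below 0, 4 called lower and 1 higher. Genes with a bacterial counterpart and genes found only in mitochondria had like medians. Mrps18a (mL66) and Mrps18b (mS40), although paralogs of bacterial S18, were counted among those found only in mitochondria. In the large subunit these were −0.12 for 30 genes with a counterpart, 8 of them called lower, and −0.11 for 20 without, 4 of them called lower. In the small subunit they were −0.10 for 16 genes with a counterpart, 2 of them called lower, and −0.094 for 10 without, of which 2 were called lower and all 10 were below 0. The summed level of large subunit transcripts per length was between 2.38 and 2.52 times that of the small subunit in the training hearts and between 2.44 and 2.56 times in the sedentary hearts, so these ranges overlapped.

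Among the large subunit genes with a bacterial counterpart, Mrpl3 (uL3m), whose mutation in humans causes a mitochondrial cardiomyopathy, changed with the least scatter. Mrpl3 (ENSMUSG00000032563, chromosome 9 of GRCm39, 104930427 to 104958084) was at 87.5, 86.0, 83.1, 83.2 and 81.6 CPM in training hearts 1 to 5. It was at 95.7, 94.5, 96.1, 95.0 and 93.5 CPM in the sedentary hearts. All 5 training hearts were below the lowest sedentary heart. The log2 fold change of Mrpl3 was −0.17 with a standard error of 0.034 (adjusted p = 0.0216, edgeR quasi-likelihood, Benjamini-Hochberg), and 26.4% of its annotated exon bases are shared with Gm38077 on the same strand. Its spread of 1.08% (coefficient of variation) between sedentary hearts was the lowest of the set. Mrpl4 (uL4m) and Mrpl22 (uL22m) line the tunnel through which the new chain leaves. Mrpl4 fell from 74.8 ± 1.43 CPM (SD, n = 5) in sedentary to 67.2 ± 2.29 CPM in training hearts, and Mrpl22 from 16.2 ± 0.53 to 13.9 ± 1.06 CPM. Neither gene had overlapping groups, and the adjusted p was 0.0403 for Mrpl4 and 0.0497 for Mrpl22 (edgeR quasi-likelihood, Benjamini-Hochberg). Mrpl4 was not called without sedentary heart 3, and Mrpl22 not without training hearts 4 or 5 or sedentary heart 3.

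Mrpl12 (bL12m), which forms the stalk that receives translation factors, was at 127.5, 123.4, 112.2, 112.5 and 105.9 CPM in the training hearts and at 128.4, 137.8, 133.6, 133.0 and 129.7 CPM in the sedentary hearts. Training heart 1 lay just below the lowest sedentary heart, and training heart 5 was the lowest. The log2 fold change was −0.19 with a standard error of 0.050 (adjusted p = 0.0573, edgeR quasi-likelihood, Benjamini-Hochberg), and the call was lost in 6 of 10 fits that each left out 1 heart, namely training hearts 3, 4 or 5 and sedentary hearts 2, 3 or 4. Mrpl10 (uL10m), to which the stalk protein attaches, was at 47.5 ± 1.73 CPM in training and 50.6 ± 2.49 CPM in sedentary hearts and was not called (adjusted p = 0.272, edgeR quasi-likelihood, Benjamini-Hochberg). Mrpl14 (uL14m), at the face that meets the small subunit, fell from 35.7 ± 1.54 to 31.9 ± 1.70 CPM, with an adjusted p of 0.0765 in edgeR with Benjamini-Hochberg adjustment, and the groups overlapped through training heart 1. The bacterial-type proteins Mrpl32, Mrpl34 and Mrpl35 fell by 0.20, 0.20 and 0.21 on the log2 scale, with adjusted p of 0.0972, 0.0682 and 0.0406 in the same edgeR test. Mrpl35 was free of overlap and lost its call without training heart 4 or sedentary heart 3. Mrpl32 and Mrpl34 overlapped and were called in 2 and 4 of the 10 fits, and Mrpl14 in 3. All 3 lost the call without training hearts 3, 4 or 5 or sedentary hearts 2, 3 or 4, Mrpl14 and Mrpl32 also without training heart 2, and Mrpl32 also without sedentary heart 5.

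Of the large subunit proteins found only in mitochondria, Mrpl41 (mL41) fell most. Mrpl41 (ENSMUSG00000036850, chromosome 2 of GRCm39, 24862319 to 24865956) was at 28.0, 26.8, 26.8, 26.4 and 22.5 CPM in the training hearts and at 29.4, 32.5, 32.1, 33.0 and 34.5 CPM in the sedentary hearts. The groups did not overlap, and training heart 5 stood apart on the low side. The log2 fold change was −0.305 with a standard error of 0.061 (adjusted p = 0.0218, edgeR quasi-likelihood, Benjamini-Hochberg), a fall by 19.0%. Mrpl51 (mL51) fell from 105.3 ± 3.53 to 90.6 ± 5.05 CPM (SD, n = 5 each), with an adjusted p of 0.0231 in the same edgeR test, and its groups did not overlap. Mrpl42 (mL42), the most abundant transcript of the set, was at 192.6, 186.8, 171.2, 192.9 and 166.9 CPM in training and at 196.1, 207.4, 199.9, 208.6 and 213.8 CPM in sedentary hearts. Training hearts 1 and 4 came close to sedentary heart 1, and no training heart reached it. Its log2 fold change was −0.17 with a standard error of 0.048 (adjusted p = 0.0693, edgeR with Benjamini-Hochberg adjustment). It was called in 4 of the 10 fits with 1 heart left out, failing without training hearts 3 or 5 or sedentary hearts 2, 3, 4 or 5. Mrpl45 (mL45), which holds the tunnel exit against the inner membrane, was at 54.0 ± 4.02 CPM in training and 61.0 ± 3.57 CPM in sedentary hearts (adjusted p = 0.109, edgeR with Benjamini-Hochberg adjustment). Mrpl44 (mL44), known from infantile hypertrophic cardiomyopathy, was at 41.7 ± 1.86 CPM in training and 45.1 ± 1.53 CPM in sedentary hearts without overlap and was not called (adjusted p = 0.166 in that test). Mrpl58 (mL62), a peptidyl-tRNA hydrolase that frees stalled ribosomes, was at 32.1 ± 2.50 CPM in training and 35.1 ± 2.04 CPM in sedentary hearts (adjusted p = 0.245 in that test).

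The small subunit genes called lower were Mrps2, Mrps17, Mrps18b and Mrps34. Mrps2 (uS2m; ENSMUSG00000035772, chromosome 2 of GRCm39, 28358049 to 28364580) was at 34.3, 36.9, 33.8, 33.3 and 31.6 CPM in the training hearts. It was at 37.2, 41.1, 40.6, 40.4 and 40.0 CPM in the sedentary hearts, of which heart 1 was the lowest and close to training heart 2. The log2 fold change was −0.23 with a standard error of 0.048 (adjusted p = 0.0235, edgeR quasi-likelihood, Benjamini-Hochberg). Mrps34 (mS34), a protein that the small subunit needs to stay stable, fell from 49.9 ± 1.33 to 42.4 ± 4.61 CPM, with training heart 2 inside the sedentary range and an adjusted p of 0.0624 in the same edgeR test. Its exons share 47.8% of their bases with Nme3 on the same strand. Mrps17 (uS17m) fell from 40.7 ± 1.89 to 36.2 ± 2.49 CPM (adjusted p = 0.0989 in the same edgeR test), also with training heart 2 inside the sedentary range. Mrps34 was called in 4 and Mrps17 in 3 of the 10 fits that left out 1 heart. Both failed without training hearts 3, 4 or 5 or sedentary hearts 3, 4 or 5, and Mrps17 also without sedentary heart 2. Mrps12 (uS12m), at the decoding centre, was at 22.0 ± 1.21 CPM in training and 23.9 ± 0.30 CPM in sedentary hearts, without overlap and not called (adjusted p = 0.178, edgeR with Benjamini-Hochberg adjustment).

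Of the paralogs of bacterial S18, Mrps18a and Mrps18b were lower and Mrps18c was not called. Mrps18a (mL66), in the large subunit, fell from 53.0 ± 2.18 to 45.2 ± 3.32 CPM (log2 fold change −0.23, adjusted p = 0.0339, edgeR with Benjamini-Hochberg adjustment). Mrps18b (mS40) fell from 19.9 ± 0.909 to 16.7 ± 1.11 CPM (log2 fold change −0.25, adjusted p = 0.0305, same test). Both were called lower in all 10 fits with 1 heart left out. Mrps18c (bS18m) was at 12.8, 10.5, 9.28, 9.49 and 10.1 CPM in the training hearts and at 9.63, 9.78, 9.34, 9.47 and 7.99 CPM in the sedentary hearts. The groups overlapped, and the log2 fold change of 0.18 did not pass the test with a standard error of 0.090 (adjusted p = 0.295, edgeR quasi-likelihood, Benjamini-Hochberg). With RSEM, which gave Mrps18c 1.65 times as many counts, its log2 fold change was −0.004. The differences between the paralogs were not tested. Mrps30 (mL65), the other large subunit protein with an Mrps name, was at 41.6 ± 1.49 CPM in training and 43.3 ± 1.07 CPM in sedentary hearts (adjusted p = 0.445 in that test).

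**Figure D2:**
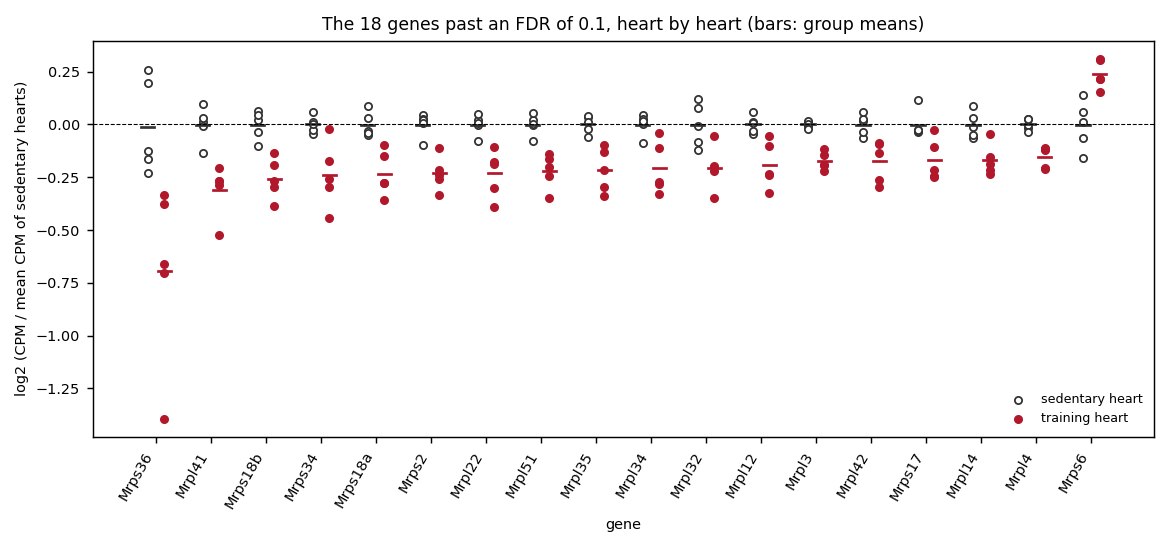
Log2 of CPM over the mean CPM of the sedentary hearts (y axis) for the 18 genes past an FDR of 0.1 (x axis), with 1 point per heart, open for sedentary and filled for training, and a bar for each group mean. In 12 of the 17 lower genes all filled points lie below all open points, training heart 5 stands far below the others in Mrps36, and in Mrps6 all filled points lie above.

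Mrps6 (bS6m) was the only gene of the set called higher. Mrps6 (ENSMUSG00000039680, chromosome 16 of GRCm39, 91854965 to 91909592) was at 21.2, 19.8, 21.1, 19.0 and 19.8 CPM in the training hearts and at 18.8, 16.3, 17.7, 17.2 and 15.3 CPM in the sedentary hearts. The lowest training heart was just above the highest sedentary heart. The log2 fold change was 0.24 with a standard error of 0.060 (adjusted p = 0.0449, edgeR quasi-likelihood, Benjamini-Hochberg), and the call was lost without training heart 3 or sedentary heart 2. Of its exon bases, 17.0% are shared on the same strand with Slc5a3, an inositol transporter gene, and Gm49711. Slc5a3 was also higher, at 8.36 ± 0.583 CPM in training and 6.26 ± 0.823 CPM in sedentary hearts (log2 fold change 0.42, adjusted p = 0.0274 in the same edgeR test). With RSEM expected counts, which divide reads that match several genes, Mrps6 had a log2 fold change of 0.15 and was not called (adjusted p = 0.159, edgeR with Benjamini-Hochberg adjustment). Reads on exon bases that Mrps6 and Slc5a3 share in the annotation used for counting are ambiguous and entered the unique count of neither gene. The 6 other genes above 0 were Mrps18c, Mrpl23, Mrpl39, Mrpl33, Mrpl27 and Mrpl9, at log2 fold changes of 0.18, 0.096, 0.074, 0.057, 0.027 and 0.021, and none was called (edgeR, none at an unadjusted p below 0.05 and none by DESeq2).

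Mrps36 had the largest change by unique reads, and the size of this change depended on the kind of count. Mrps36 (ENSMUSG00000061474, chromosome 13 of GRCm39, 100872116 to 100881584) was at 12.2, 9.76, 11.9, 9.46 and 5.87 CPM in the training hearts and at 13.1, 13.7, 14.1, 18.4 and 17.7 CPM in the sedentary hearts. The groups did not overlap, and the coefficients of variation of 25.8% and 15.8% were the highest of the set. The log2 fold change was −0.64 with a standard error of 0.159 (adjusted p = 0.0449, edgeR quasi-likelihood, Benjamini-Hochberg), and the call was lost without training heart 4. RSEM gave Mrps36 3.76 times as many reads as unique counting, and on these its log2 fold change was −0.23 (adjusted p = 0.0816 in edgeR with Benjamini-Hochberg adjustment). The annotation holds pseudogenes named after Mrps36.

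For most of the set the kind of count mattered little. The ratio of RSEM to unique counts had a median of 0.978 over the tested genes, and it was between 0.9 and 1.2 in 68 of them. It exceeded 1.2 in 9 genes, led by Mrpl23 (4.95), Mrps36 (3.76), Mrps33 (2.90), Mrps18c (1.65) and Mrps18b (1.58). With RSEM counts 16 genes were lower and 0 higher in edgeR (1 higher at an unadjusted p below 0.05), and 15 of the 16 were among the 17 above. All 78 were then tested, and 74 were below 0. Mrps18c, Mrpl33 and Mrpl27 changed sign, to −0.004, −0.010 and −0.025. The gene without a test on unique reads, Mrpl53 (mL53), had no unique count on either strand in any heart, while RSEM gave it between 961.8 and 1437 expected counts per heart and a log2 fold change of −0.059 (adjusted p = 0.616, edgeR with Benjamini-Hochberg adjustment).

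**Figure D3:**
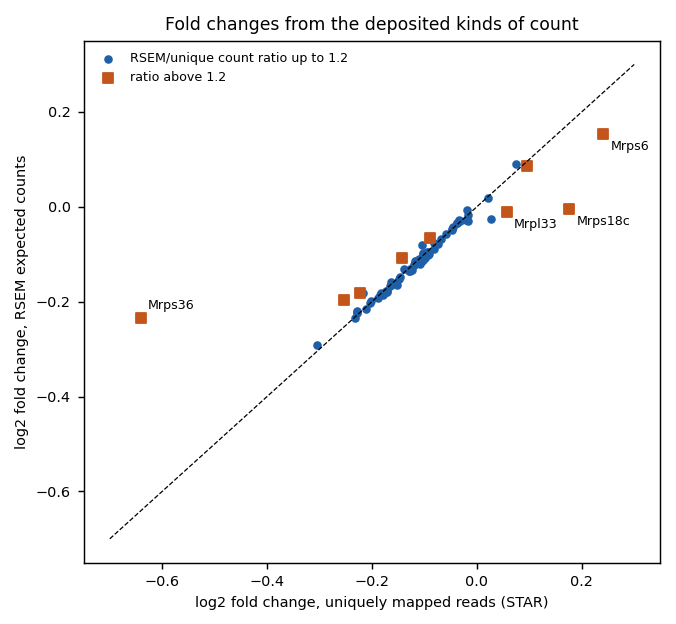
Log2 fold change, training over sedentary, from uniquely mapped reads (x axis) and from RSEM expected counts (y axis) for the 77 genes tested on both, with orange squares for a ratio of RSEM to unique counts above 1.2 and a dashed line of equality. Blue points differ from the line by at most 0.052, and Mrps36, Mrps18c, Mrps6 and Mrpl33 lie off it.

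The training hearts differed from each other. Relative to the sedentary mean, the median of the 77 genes was −0.035, −0.041, −0.15, −0.14 and −0.22 on the log2 scale in training hearts 1 to 5, and it lay between −0.033 and 0.048 in the sedentary hearts. Training hearts 1 and 2 were beside the lowest sedentary heart, and training hearts 3, 4 and 5 were further below. Below every sedentary heart were 26, 32, 65, 59 and 64 of the 77 genes in training hearts 1 to 5, whereas between 19% and 23% of all tested genes were so in each. By subunit, the median of the large subunit was −0.048 and that of the small 0.004 in training heart 1, and they were −0.22 and −0.18 in training heart 5. The summed CPM of the set were 3124 ± 174 in training and 3401 ± 78.9 in sedentary hearts (SD, n = 5 each), a difference of means of −8.13%, and 4 of 5 training hearts were below every sedentary heart. The TPM scale used for levels is per length, and each heart is rescaled to a common sum, which removes the correction for composition. On this scale the difference of the summed levels was −4.36%, and 3 of 5 training hearts were below every sedentary heart. The median coefficient of variation of a gene was 6.7% between training hearts and 4.32% between sedentary hearts.

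**Figure D4:**
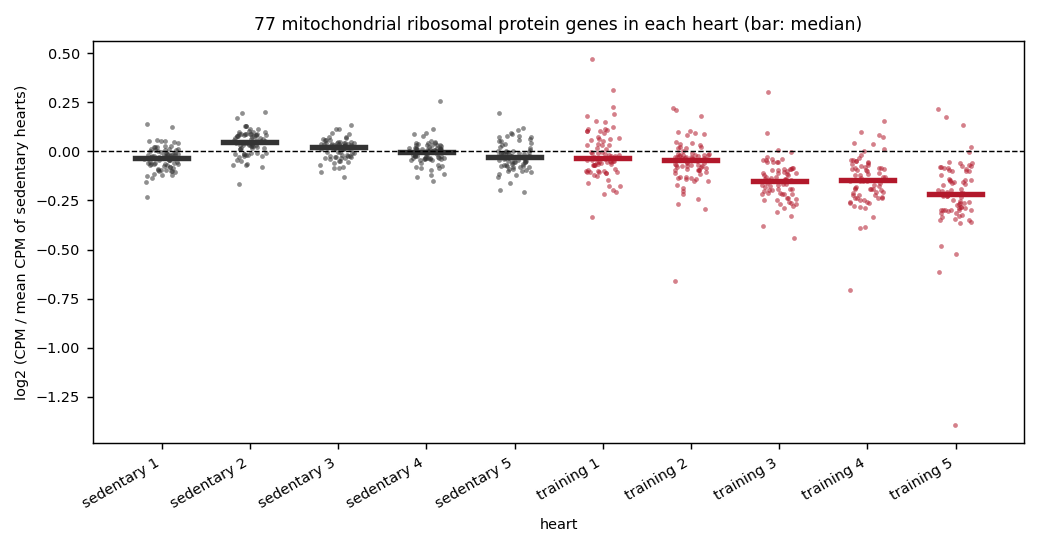
Log2 of CPM over the mean CPM of the sedentary hearts (y axis) for the 77 tested genes in each of the 10 hearts (x axis), with 1 point per gene and a bar at the median of each heart. The bars of training hearts 1 and 2 lie near those of the sedentary hearts, at −0.035 and −0.041, and that of training heart 5 is the lowest at −0.22.

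Levels of different genes were compared per length, on a TPM scale (CPM divided by the effective lengths of RSEM and rescaled to a common sum) over all 10 hearts. The median tested gene of the set was at 62.2 TPM, and 87.5% of 13562 tested protein-coding genes, whose median was 10.7 TPM, were below it. The large subunit had a median of 66.8 and the small subunit one of 59.1 TPM. Although the proteins are built into 1 particle, their transcripts spanned 35.05-fold by unique reads, with Mrpl23 at the low end. Mrpl42 led with 554 ± 26.3 TPM (SD over 10 hearts), followed by Mrpl30 (uL30m) with 400.7 ± 20.9 TPM. These ranges, 505.5 to 581.6 TPM and 353.9 to 425.9 TPM, did not overlap. Mrps23 (204 ± 21.5), Mrpl51 (194 ± 16.2), Mrpl12 (190 ± 12.9) and Mrps21 (189 ± 19.9 TPM) came next and did not differ from each other beyond their spread. At the low end were Mrps22 (25.1 ± 1.36), Mrps10 (22.8 ± 1.80), Mrps30 (21.4 ± 0.931), Mrpl1 (19.3 ± 1.73) and Mrpl23 (15.8 ± 1.80 TPM). Neighbours in this order overlapped too. The place of Mrpl23 (uL23m), another protein of the tunnel exit, is not secure, because RSEM counts put it at 50.5 TPM, the 31st place of 78. Mrps36 and Mrps33 held places 59 and 69 of 77 by unique reads and places 8 and 24 of 78 by RSEM. Most other genes had lower TPM with RSEM, Mrpl42 for instance 359.3. The median log2 fold change was −0.13 in the 26 genes with the highest levels, −0.10 in the 26 next and −0.12 in the 25 lowest.

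**Figure D5:**
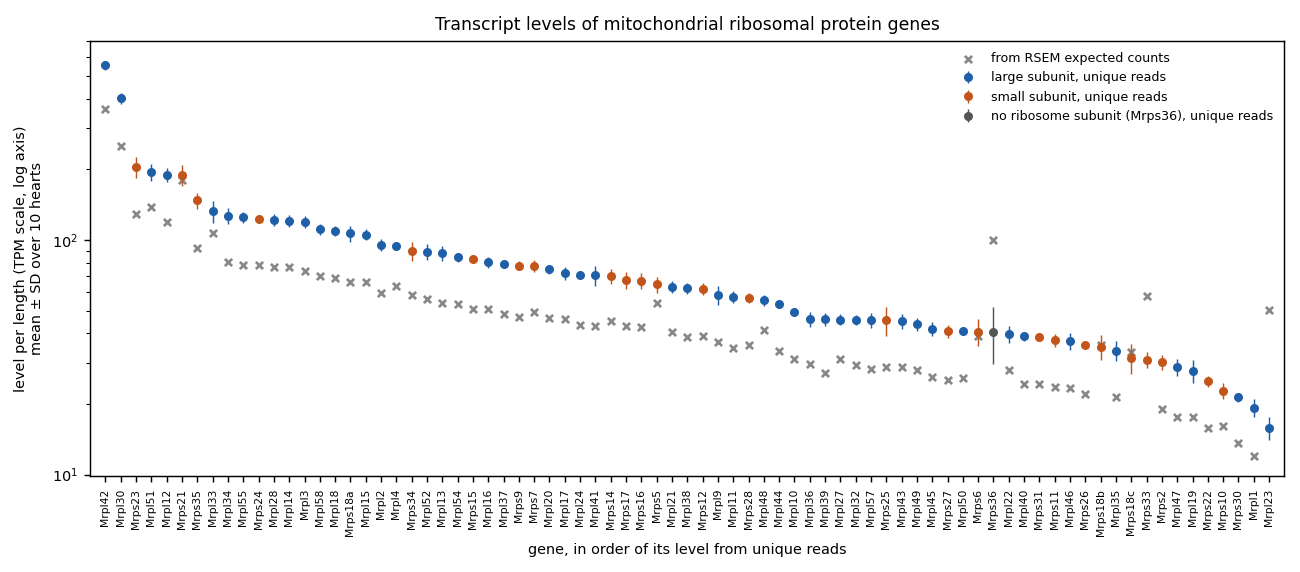
Level per length on a logarithmic axis (y axis, TPM scale, mean ± SD over 10 hearts) for the 77 tested genes in order of their level (x axis), with points from unique reads and crosses from RSEM expected counts. Levels from unique reads run from 554 TPM in Mrpl42 to 15.8 TPM in Mrpl23. Most crosses lie below their points, and those of Mrpl23, Mrps36 and Mrps33 lie far above.

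Mitochondrial ribosomal protein genes are short, and short genes as a whole had slightly lower fold changes. Their transcripts had a median length of 951.8 bases against 2392 over all tested genes. Between 500 and 1000 bases, the median log2 fold change was −0.048 over 1440 tested genes of any kind and −0.12 over the 39 genes of the set. From 2000 bases on it was 0.014 over all 9295 tested genes and −0.13 over 6 genes of the set. With the trend on length removed, the median of the set was −0.086, and with the trend on GC content removed it was −0.12. The cytosolic ribosomal proteins, also short with a median of 669.8 bases, had a median of 0.011 over 89 tested genes, with 2 lower and 4 higher.

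The partners of the mitoribosome were followed in lists written by hand. The other proteins of the particle, without an Mrp symbol, were all 5 below 0 with a median of −0.10, and 1 was lower: Ptcd3 (mS39) fell from 117 ± 3.93 to 104.8 ± 6.82 CPM (adjusted p = 0.0784, edgeR with Benjamini-Hochberg adjustment). Of 16 translation factors, 3 were lower and none higher, with a median of −0.097. These were the initiation factor Mtif2, the elongation factor Gfm1 and the back-translocase Guf1, with log2 fold changes of −0.20, −0.13 and −0.19 (adjusted p = 0.0498, 0.0935 and 0.0604 in that test). Of 27 assembly genes, 1 was lower, C1qbp, which fell from 114.3 ± 4.71 to 100.9 ± 5.32 CPM without overlap (adjusted p = 0.0461 in that test), and the list's median was −0.046. Of the assembly genes 3.7% were thus lower, below the 4.26% of all tested genes, against 18.8% of the translation factors. Of 9 genes that transcribe or maintain mitochondrial DNA, Tfb2m alone was lower, by unique reads from 26.3 ± 2.11 to 23.1 ± 0.732 CPM (adjusted p = 0.084 in that test), while RSEM counts gave it a log2 fold change of −0.063. Without sedentary hearts 2 or 4, or training heart 4, none of these calls but that of Mtif2 without sedentary heart 4 remained. Left out in turn, training hearts 2, 3 and 5 and sedentary hearts 3 and 5 also ended some of them, and over the 10 fits Ptcd3 and Gfm1 were called in 2, Tfb2m in 3, Guf1 in 5 and C1qbp and Mtif2 in 6. With the atrial score as a covariate none of these calls remained in edgeR, and at an unadjusted p below 0.05 there were lower 1 of the other particle proteins, 3 translation factors, 1 assembly gene and 3 genes for mitochondrial DNA, with medians of −0.10, −0.031, −0.018 and −0.050. None of these genes was higher by edgeR, where only 1 assembly gene was higher at an unadjusted p below 0.05, or by DESeq2.

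The RNAs that the mitoribosome reads and is built on were measured as well, within the limits of a poly-A library. Of 13 messenger RNAs of mitochondrial DNA, 7 were tested. The others did not have the unique counts that a test needs, and the reason was not examined. All 7 were below 0 with a median of −0.11, and none was called in edgeR (2 lower at an unadjusted p below 0.05, 1 lower by DESeq2). The ribosomal RNAs mt-Rnr1 and mt-Rnr2 had log2 fold changes of −0.003 and −0.035 and were not called (none at an unadjusted p below 0.05 or by DESeq2). Of 11 regulators of nuclear genes for mitochondrial proteins none was called by edgeR or DESeq2 or passed an unadjusted p of 0.05, and their median was −0.000. Gabpa and Nrf1, whose letters were searched in the promoters, had log2 fold changes of 0.002 and 0.048 (adjusted p = 0.984 and 0.708, edgeR with Benjamini-Hochberg adjustment). Ppargc1a, the coactivator PGC-1α, varied widely, at 339.8 ± 81.6 CPM in training and 416.7 ± 92.6 CPM in sedentary hearts (adjusted p = 0.357 in that test).

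Markers of cell types moved between the groups alongside the mitoribosomal genes. In whole hearts, fewer cells of a type and less RNA per cell cannot be told apart. Of 14 cardiomyocyte markers 3 were lower (Tnnc1, Actc1 and Ckm) and none higher (edgeR, none at an unadjusted p below 0.05 or by DESeq2), with a median log2 fold change of −0.11. Their summed level was 79744 to 86187 CPM in training and 84463 to 95125 CPM in sedentary hearts. Of 10 endothelial markers 3 were lower, with sums of 1371 to 1436 and 1528 to 1584 CPM that did not overlap. Of 14 atrial markers 4 were higher (Sln, Dkk3, Stard10 and Kcnj3) and Kcna5 was lower, with sums of 6538 to 9217 CPM in training and 3977 to 8576 CPM in sedentary hearts. Of 10 fibroblast markers 3 were higher, with sums of 3169 to 4164 and 2872 to 3325 CPM. None of 9 macrophage markers was called (edgeR, none at an unadjusted p below 0.05 or by DESeq2), with sums of 418.1 to 513.8 and 426.1 to 561 CPM. Of 8 tested adipocyte markers Plin4 was lower, with sums of the list of 342.5 to 580.6 and 452.6 to 594 CPM. The other 7 were above 0 and none was called (edgeR, none at an unadjusted p below 0.05 or by DESeq2). The median log2 fold change of the 8 was 0.741. Of 6 tested skeletal muscle markers Acta1 was lower, with sums of 1705 to 2249 and 2071 to 2531 CPM. No marker was at 0 in all hearts, and Myh4 of the skeletal muscle list was below 0.1 CPM. Of these calls, some were made in at most 5 of the 10 fits with 1 heart left out: Acta1 in 1, Lum and Flt1 in 2, Tie1 in 3, Pdgfra in 4 and Stard10 in 5. DESeq2 called no skeletal muscle marker. With the atrial score as a covariate, none of the cardiomyocyte, endothelial, fibroblast, adipocyte or skeletal muscle markers was called in edgeR, and 4, 3, 2, 1 and 2 of them passed an unadjusted p of 0.05. The part of these shifts in the lower mitoribosomal levels was not tested. The atrial score ran from −0.048 to 0.409 in training and from −0.644 to 0.24 in sedentary hearts. Because it went partly with the group, the fit with this score cannot fully tell training and atrial share apart.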

How the data were processed

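Poly-A RNA of 10 mouse hearts, 5 per group, was sequenced as single reads from directional libraries. The authors aligned the reads to GRCm39 with STAR 2.7.10a and deposited per gene the raw count of uniquely mapped reads, with no normalization or filter. Expected counts from RSEM 1.3.3 were deposited too. RSEM divides reads between genes they match alike, and its strand setting is not given in the sources used here. Counts of the reverse strand were used. Identifiers were joined to GENCODE M39, which gave 56017 of 56748 a symbol. Lines without a gene entered neither library sizes nor tests, and these held multimapping reads at 17.9% to 19.2%, reads on no gene at 4.15% to 4.89% and ambiguous reads at 0.94% to 0.998% of a library.

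Groups came from the sample labels and were compared over all genes with edgeR 4.0.16 in R 4.3.3 (genes kept by filterByExpr, TMM factors, quasi-likelihood F test, Benjamini-Hochberg adjustment, FDR below 0.1). The study used DESeq2, here 1.42.0 and an alternative. Other alternatives were DESeq2 size factors, library totals, no mitochondrial DNA genes, no filter, at least 10 counts in every heart, RSEM expected counts rounded to whole numbers, both strands, mouse number as a block, an atrial marker score as a covariate, trends on length and GC removed by loess (span 0.3), each heart left out, and an FDR below 0.05. The fit was tested on simulated data with larger changes than nearly all those of the set, so that test does not cover steps of the size described here.

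Genes were named if called, among the 5 highest or lowest in fold change or level, an S18 paralog, Mrps30, Mrps36, of a stated role, untested, or called in a partner list. Genes named outside this rule (Mrpl16, Mrpl40, Mrps7, Mrps21, Mrps33, Mrpl27, Mrpl9, markers, regulators, overlapping neighbours and ribosomal RNAs) were chosen after their values were seen. The gene set, lists and subunit groups were chosen with earlier results of these data known. P-values set the difference between the groups against the spread between the 5 hearts of a group, which edgeR estimates with information from all genes.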

Additional observations from a re-analysis of the deposited data

Results flagged for a closer look

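In 5 cases 1 heart stood apart from the other 4 of its group by a gap of more than 0.71 of the group's range, Dixon's limit for 5 samples. Chance alone flags about 1 in 20 groups, and 72 groups were examined. Mrpl41 was at 22.5 CPM in training heart 5 and between 26.4 and 28.0 CPM in the other training hearts. Mrps17 was at 44.0 CPM in sedentary heart 4 against 39.6 to 39.97 CPM in the others. Mrps2 was at 37.2 CPM in sedentary heart 1 against 40 to 41.1 CPM. Mrps18c was at 7.99 CPM in sedentary heart 5 against 9.34 to 9.78 CPM. The ratio of large to small subunit levels per length was 2.385 in training heart 1 and between 2.502 and 2.518 in the other training hearts.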

How the results depend on the processing

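The number of genes called lower was 17. It was 22 by DESeq2, 15 with DESeq2 size factors, without mitochondrial DNA genes or without a filter, 18 with at least 10 counts in every heart, 16 with RSEM counts and 14 with counts of both strands. It fell to 8 with library totals alone. It was 10 at an FDR below 0.05, 0 with the atrial score as a covariate, and between 7 and 29 when each heart was left out. The 1 gene higher became 0 with RSEM counts and with the atrial score, and ranged from 0 to 1 with a heart left out. The median fall of the set was smaller with library totals alone, with the atrial score and with the trend on length removed. With library totals alone the shift of this median from the main fit exceeded the SD between sedentary hearts, 0.031, but not that between training hearts, 0.082. Both SDs (mean log2 level of the set per heart) were taken with the correction for composition, not with library totals. The medians of the large and small subunits were −0.118 and −0.101, and −0.091 and −0.074 with the atrial score. Mrps18c, Mrpl33 and Mrpl27 changed sign with RSEM counts, to −0.004, −0.010 and −0.025. The level of members, the median per heart, was 61.9 TPM and became 42.5 with RSEM counts and 58.3 with both strands. Over the 33 named genes tested, 550 values kept their side of the threshold, 97 lost it, 11 gained it and 2 changed sign. Mrpl23 rested on at most 195 counts of both strands per heart. The causes of these shifts were not tested.

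Mouse numbers did not pair the hearts: residuals of equal numbers correlated between −0.097 and 0.159, and 1 of 5 training hearts matched its own number best. With the number as a replicate block, 16 genes were lower, 14 of them among the 17.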
